A study of Mus musculus with 59 samples.

Results

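The genes described here are 10 genes that mark oligodendrocyte precursor cells: Pdgfra, Cspg4, Gpr17, Olig1, Olig2, Pcdh15, Lhfpl3, Matn4, Neu4 and C1ql1. They were taken by name from the deposited table of normalized counts and not by their values. All 10 were found among the 18088 genes listed, and all 10 were among the 16599 tested. The 59 libraries are mRNA of the dissected prefrontal cortex of 25-day-old C57BL/6J mice (postnatal day 25), and each labelled replicate was taken as 1 mouse. The mice carried 1 knock-in copy of Shank3 (HT, 30 mice) or none (WT, 29 mice). Shank3 encodes a scaffold protein of excitatory synapses. The sample labels give the allele only as a knock-in, and the column names of the deposited table begin with L68P, which the labels do not explain. From postnatal day 3 to day 24, over 3 weeks, the pups of every arm were dosed through the milk of the dam with vehicle, fluoxetine or lithium. Fluoxetine blocks serotonin reuptake, and lithium inhibits glycogen synthase kinase 3. Each of the 6 arms of genotype and drug held 10 mice, 5 females and 5 males, except WT lithium with 9 (4 females). Litters are not labelled and the drug reached pups through the dam, so the p-values treat littermates as independent.

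Oligodendrocyte precursor cells divide in the postnatal cortex and turn into the oligodendrocytes that wrap axons in myelin. Platelet-derived growth factor acting on Pdgfra keeps them dividing, Olig1 and Olig2 set the lineage, and Gpr17 marks cells that have left the precursor state but do not yet make myelin. Several of the genes are not restricted to the lineage: Cspg4 is also made by pericytes, Pdgfra by fibroblasts of the meninges and vessel walls, and Olig1 and Olig2 by myelinating cells. In bulk tissue, fewer cells of a type and less RNA per cell cannot be told apart.

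Promoter windows, 250 bases before to 50 bases after the annotated start, were found in RefSeq (GRCm38.p6) for 7 of the 10 genes. Cspg4 and Neu4 are shown because both were higher with lithium in HT mice, and Lhfpl3 because its level followed markers of another brain region. Capitals mark the GC box (GGGCGG, either strand) and the E-box CAGCTG, the kind of motif that basic helix-loop-helix factors such as Olig2 can bind. The 3 sequences are given 5′ to 3′ on the strand of the gene.
Cspg4 (chr9:56864854-56865153, plus strand): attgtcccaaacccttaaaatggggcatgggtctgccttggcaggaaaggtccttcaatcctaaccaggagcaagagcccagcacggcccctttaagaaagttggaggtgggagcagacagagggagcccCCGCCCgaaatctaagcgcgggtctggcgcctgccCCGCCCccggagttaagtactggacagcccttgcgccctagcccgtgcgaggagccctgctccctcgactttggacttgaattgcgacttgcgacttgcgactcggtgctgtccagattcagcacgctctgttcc
Neu4 (chr1:94020243-94020542, plus strand): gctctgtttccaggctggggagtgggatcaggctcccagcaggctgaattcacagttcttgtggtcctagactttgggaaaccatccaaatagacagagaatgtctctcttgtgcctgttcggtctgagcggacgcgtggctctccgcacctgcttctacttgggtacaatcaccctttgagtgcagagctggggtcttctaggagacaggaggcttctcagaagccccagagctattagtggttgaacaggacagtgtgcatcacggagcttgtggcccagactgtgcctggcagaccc
Lhfpl3 (chr5:22745804-22746103, plus strand): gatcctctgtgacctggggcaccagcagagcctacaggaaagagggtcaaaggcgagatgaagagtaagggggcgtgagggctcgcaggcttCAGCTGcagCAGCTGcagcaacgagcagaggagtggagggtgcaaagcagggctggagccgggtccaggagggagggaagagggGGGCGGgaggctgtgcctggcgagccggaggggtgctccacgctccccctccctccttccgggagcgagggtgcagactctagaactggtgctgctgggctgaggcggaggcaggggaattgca
The Cspg4 window held 2 GC boxes and no E-box, the Neu4 window held neither motif, and the Lhfpl3 window held 1 GC box and 2 E-boxes. Over all 32851 promoters of this length, 35.66% held the GC box and 16.3% held the E-box. The GC content was 60% for Cspg4, 55.33% for Neu4 and 66% for Lhfpl3, beside a median of 52.7% over all promoters.

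All 10 genes were well counted. The fewest reads for any of them in any library were 161, for C1ql1, and totals ran from 22984556 to 35969254 reads per library. Per kilobase of exon, a scale on which genes can be compared, the mean normalized count was highest for Olig1, at 1076 ± 194 (SD, n = 59), and next for Gpr17, at 598 ± 93.3. Lhfpl3 (267 ± 69.4) and Olig2 (227 ± 44.6) followed, then Pdgfra (184 ± 19.9) and C1ql1 (181 ± 41.6). Neu4 (69.0 ± 10.7), Matn4 (59.5 ± 13.4), Cspg4 (53.2 ± 10.5) and Pcdh15 (42.0 ± 6.74) were lowest. Olig1 and Gpr17 each lay above the next gene by more than their SDs, while the pairs Lhfpl3 and Olig2, Pdgfra and C1ql1, and each neighbour from Neu4 down to Pcdh15 differed by about the SD between libraries or less. The counting strand is not given in the sources used here. In GENCODE 7 of the 10 genes overlap other annotated genes, and Cspg4, Olig2 and Neu4 overlap none. Gpr17 overlaps Lims2, Matn4 overlaps Rbpjl, C1ql1 overlaps Gm26668 and Olig1 overlaps Gm15966, each on the other strand. Pdgfra, Pcdh15 and Lhfpl3 overlap genes on both strands, among them Mir7025, Gm15397 and 6030443J06Rik on the same strand. Reads of these genes and their partners may not be fully separated.

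The neuron markers Snap25, Syt1, Slc17a7, Rbfox3 and Gad1 were high in every library, with Snap25 at a normalized count of at least 41126. As markers of neurons they do not by themselves identify the labelled cortex. Markers of the olfactory bulb, which lies in front of the prefrontal cortex, varied far more. Their relative level, the mean over 8 markers each divided by its mean over all libraries, ran from 0.08 to 4.28, and Eomes and Tbx21 were at 0 in some libraries. The relative level of 6 striatum markers ran from 0.66 in HT vehicle to 3.49 in WT lithium libraries. By cutoffs, 8 libraries are said to stand apart, with a bulb level over 2.5 or under 5% mitochondrial reads: 3 of HT vehicle, 2 of HT lithium and 3 of WT fluoxetine. One of them, HT vehicle female 1, also had choroid plexus markers at 27.0 times their mean level. No gap in the bulb level marks the cutoff. HT vehicle female 1 was just above it, at 2.51. WT lithium female 1 (2.49) and HT fluoxetine male 5 (2.47) were just below it and were kept. Each fold change of the 10 genes, and each of their correlations with each other and with gene lists, was also computed without these 8. Shank3 itself was -0.03 ± 0.09 (log2, SE) between HT and WT vehicle mice (limma adjusted p = 0.987), which checks no label, since gene counts do not separate the alleles.

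Changes below are log2 fold changes ± SE averaged over the sexes unless a sex is named, and a gene is said to pass at a limma adjusted p under 0.05 over the 16599 genes. Folds are on the log2(normalized count + 1) scale.

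Among the comparisons of drug or genotype arms averaged over the sexes, the 10 genes gave calls only for lithium in HT mice. Cspg4, Gpr17 and Neu4 were higher, none was lower, and the other 7 did not pass. The background was wide: 20.3% of all tested genes passed in this comparison, 10.9% higher and 9.43% lower. The share of 3 in 10 is set against that background only as a description. The median change of the 10 genes was 0.20, beside -0.0018 over all tested genes, and 8 of 10 lay above 0.

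Cspg4, the proteoglycan NG2 on the surface of precursors and pericytes, had the largest change. Its normalized count ran from 409 to 643 (median 534) in HT vehicle mice and from 620 to 844 (median 722) in HT lithium mice. All 10 lithium libraries were above the vehicle median and 8 were above the highest vehicle library. In females and in males taken apart, the lithium and vehicle libraries did not overlap. The change was 0.48 ± 0.10 (limma adjusted p = 0.000426). It was 0.43 in females alone and 0.52 in males alone (limma adjusted p = 0.04996 and 0.0126 in fits of one sex).

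Gpr17, a G protein-coupled receptor whose level peaks between the precursor and the myelinating cell, ran from 1817 to 3446 (median 2635) in HT vehicle mice. With lithium it ran from 2809 to 4106 (median 3516). All 10 lithium libraries were above the vehicle median, 6 were above the highest vehicle library, and the groups overlapped. The change was 0.35 ± 0.08 (limma adjusted p = 0.00212).

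Neu4, a sialidase that trims sialic acid from glycoproteins and gangliosides, ran from 249 to 364 (median 278) in HT vehicle mice and from 295 to 412 (median 345) in HT lithium mice. All 10 lithium libraries were above the vehicle median and 4 were above the highest vehicle library. The change was 0.28 ± 0.08 (limma adjusted p = 0.00713). With each of the 20 libraries left out in turn, the 3 genes stayed past the threshold, at 0.43 to 0.51 for Cspg4, 0.30 to 0.38 for Gpr17 and 0.25 to 0.31 for Neu4. Without the 8 libraries that stand apart, Cspg4 was 0.38 (limma adjusted p = 0.0201), whereas Gpr17 was 0.27 (limma adjusted p = 0.0552) and Neu4 0.23 (limma adjusted p = 0.0916), neither past the threshold. In females alone Gpr17 was 0.45 (limma adjusted p = 0.0119) and Neu4 0.31 (limma adjusted p = 0.0407), both past the threshold. In males alone Gpr17 (0.24, limma adjusted p = 0.164) and Neu4 (0.25, limma adjusted p = 0.155) did not pass, and the difference between the sexes did not pass for either gene. Changes across all genes also followed GC content in this comparison (Spearman 0.47 across genes, which are not independent). With that trend removed, Cspg4 was 0.35, Gpr17 0.30 and Neu4 0.28, all past the threshold.

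The other genes did not pass in HT lithium mice averaged over the sexes. Pdgfra, the growth factor receptor, was 0.14 ± 0.06 (limma adjusted p = 0.0896) and Olig2 was 0.23 ± 0.11 (limma adjusted p = 0.122). Pcdh15, a cadherin, was 0.19 ± 0.09 (limma adjusted p = 0.155), and it passed without the 8 libraries that stand apart, at 0.30 (limma adjusted p = 0.0385), and with the GC trend removed, at 0.25 (limma adjusted p = 0.032). Matn4, a secreted matrilin of the extracellular matrix, was 0.22 ± 0.12 (limma adjusted p = 0.203). Olig1, at 0.02 ± 0.11, was nearest to 0. The 2 genes below 0 were Lhfpl3, a tetraspan membrane protein, at -0.34 ± 0.16 (limma adjusted p = 0.129), and C1ql1, a secreted C1q-like protein, at -0.15 ± 0.14 (limma adjusted p = 0.492). In males alone Lhfpl3 passed as lower with lithium, at -0.61 (limma adjusted p = 0.0247), and in females alone it was -0.06. Lithium males ran from 606 to 714 and vehicle males from 697 to 1420, with 4 of 5 lithium males below the lowest vehicle male. The difference of the lithium effects between the sexes did not pass (0.56, limma adjusted p = 0.343). The relative bulb level was 0.08 to 0.25 in these lithium males and 0.12 to 3.11 in the vehicle males, and without the 8 libraries that stand apart the change averaged over the sexes was -0.10 (limma adjusted p = 0.715).

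**Figure D1:**
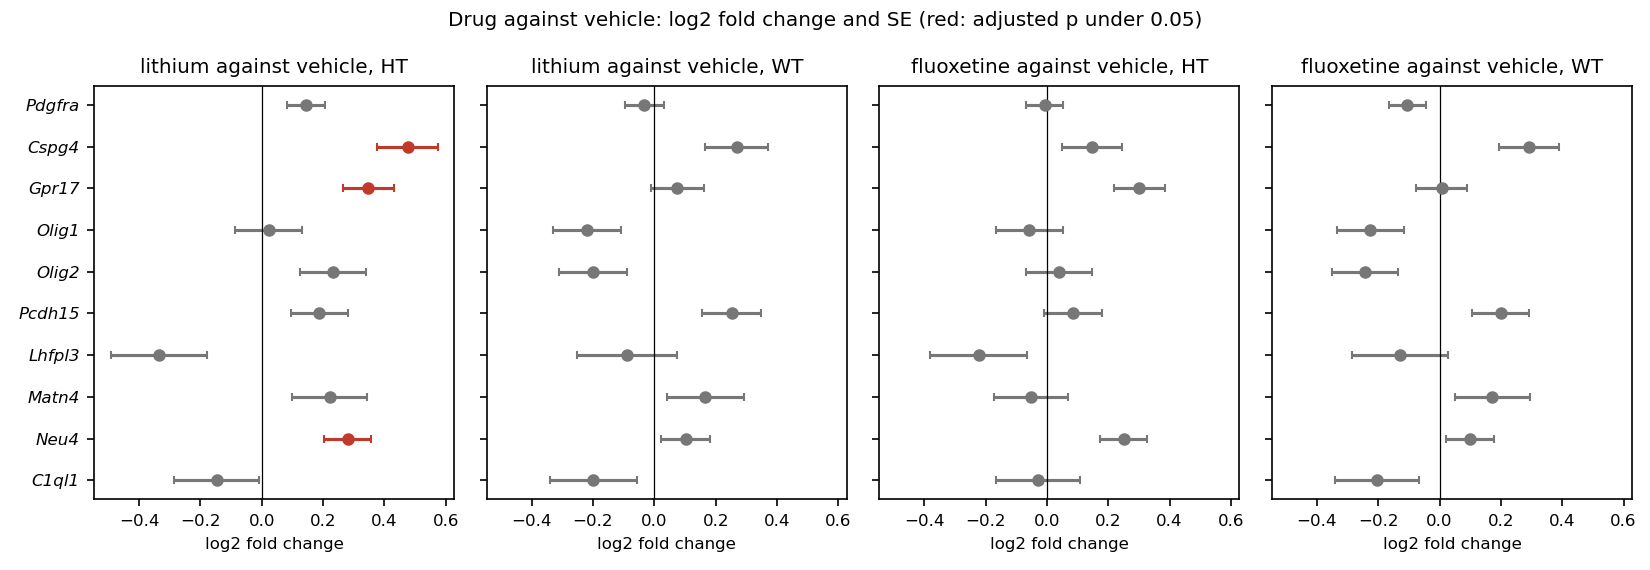
Log2 fold change of each of the 10 genes (points) with its SE (bars) for lithium or fluoxetine against vehicle in HT and WT mice, with red for a limma adjusted p under 0.05. Only Cspg4, Gpr17 and Neu4 with lithium in HT mice are red, at 0.48, 0.35 and 0.28, and the 2 HT panels share their vehicle mice, as do the 2 WT panels.

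Other lists of the lineage were read in the same comparison, in which 20.3% of all tested genes passed in either direction. Of 10 other precursor-enriched genes, 1 passed, Megf11, at 0.56 ± 0.12 (limma adjusted p = 0.000887), and the list's median was 0.05. Of 10 genes of newly formed oligodendrocytes, Rras2 (-0.25 ± 0.07) and Enpp6 (-0.43 ± 0.14) were lower and none was higher. Of 16 myelin genes, 1 passed, Ugt8a, which makes the galactolipids of myelin, at -0.52 ± 0.18. All 16 lay below 0, with a median of -0.32. Among 13 growth factors and receptors that act on precursors, 3 were higher and 3 lower, among them Igf1r at 0.26 ± 0.04 and Pdgfb at 0.36 ± 0.08, and Pdgfc at -0.26 ± 0.07 and Erbb4 at -0.24 ± 0.07. Of 10 proliferation genes, Pcna (-0.22 ± 0.04) and Ccna2 (-0.38 ± 0.14) were lower and none was higher. Each gene with a value in this paragraph had a limma adjusted p under the threshold.

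Markers of other cell types were read in the same mice, beside 10.9% of all tested genes called higher. Of 8 pericyte markers, 2 were higher with lithium in HT mice, Pdgfrb at 0.20 ± 0.07 and Notch3 at 0.27 ± 0.10. Pdgfrb is also in the list of growth factors and receptors and is counted there among the higher genes. The pericyte list's relative level ran from 0.90 to 1.22 in HT lithium and from 0.87 to 1.10 in HT vehicle libraries, with no marker at 0. Of 7 fibroblast markers none passed (median -0.03). The part of pericytes in the Cspg4 value was not tested. Of 7 astrocyte markers 3 were higher, and of 8 microglia markers 3 were higher.

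In WT mice lithium gave no call among the 10 genes, beside 12.8% of all tested genes. By limma 2 had an unadjusted p under 0.05, beside 26.7% of all tested genes, and edgeR and DESeq2 called 0. Those 2 were Cspg4, at 0.27 ± 0.10 (limma adjusted p = 0.0712), and Pcdh15, at 0.25 ± 0.10 (limma adjusted p = 0.0741). Cspg4 ran from 446 to 787 (median 570) with vehicle and from 575 to 781 (median 664) with lithium, and the ranges overlapped. Without the 8 libraries that stand apart, none of which is in these arms, both passed at the same sizes (limma adjusted p = 0.0479 and 0.0349). Gpr17 was 0.07 ± 0.09 and Neu4 0.10 ± 0.08. Igf1r (0.29 ± 0.04) and Pdgfb (0.40 ± 0.08) were higher in WT mice too, and Cspg5, another proteoglycan of precursors, was lower at -0.29 ± 0.05. The relative level of the whole list of other precursor-enriched genes differed by less than its SD. It was 0.986 ± 0.029 (SD) in WT lithium and 0.996 ± 0.041 in WT vehicle mice.

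The difference between the lithium effects in HT and WT mice was tested directly, and none of the 10 genes passed by limma, edgeR or DESeq2, beside 0.00602% of all tested genes. By limma 2 had an unadjusted p under 0.05, beside 12.2% of all tested genes. Olig2 differed by 0.43 ± 0.15 (limma adjusted p = 0.266) and Gpr17 by 0.27 ± 0.12 (limma adjusted p = 0.341). The intervals are wide: Cspg4 differed by 0.21, with a 95% interval from -0.08 to 0.49. The calls in HT mice are therefore not shown to be particular to that genotype.

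**Figure D2:**
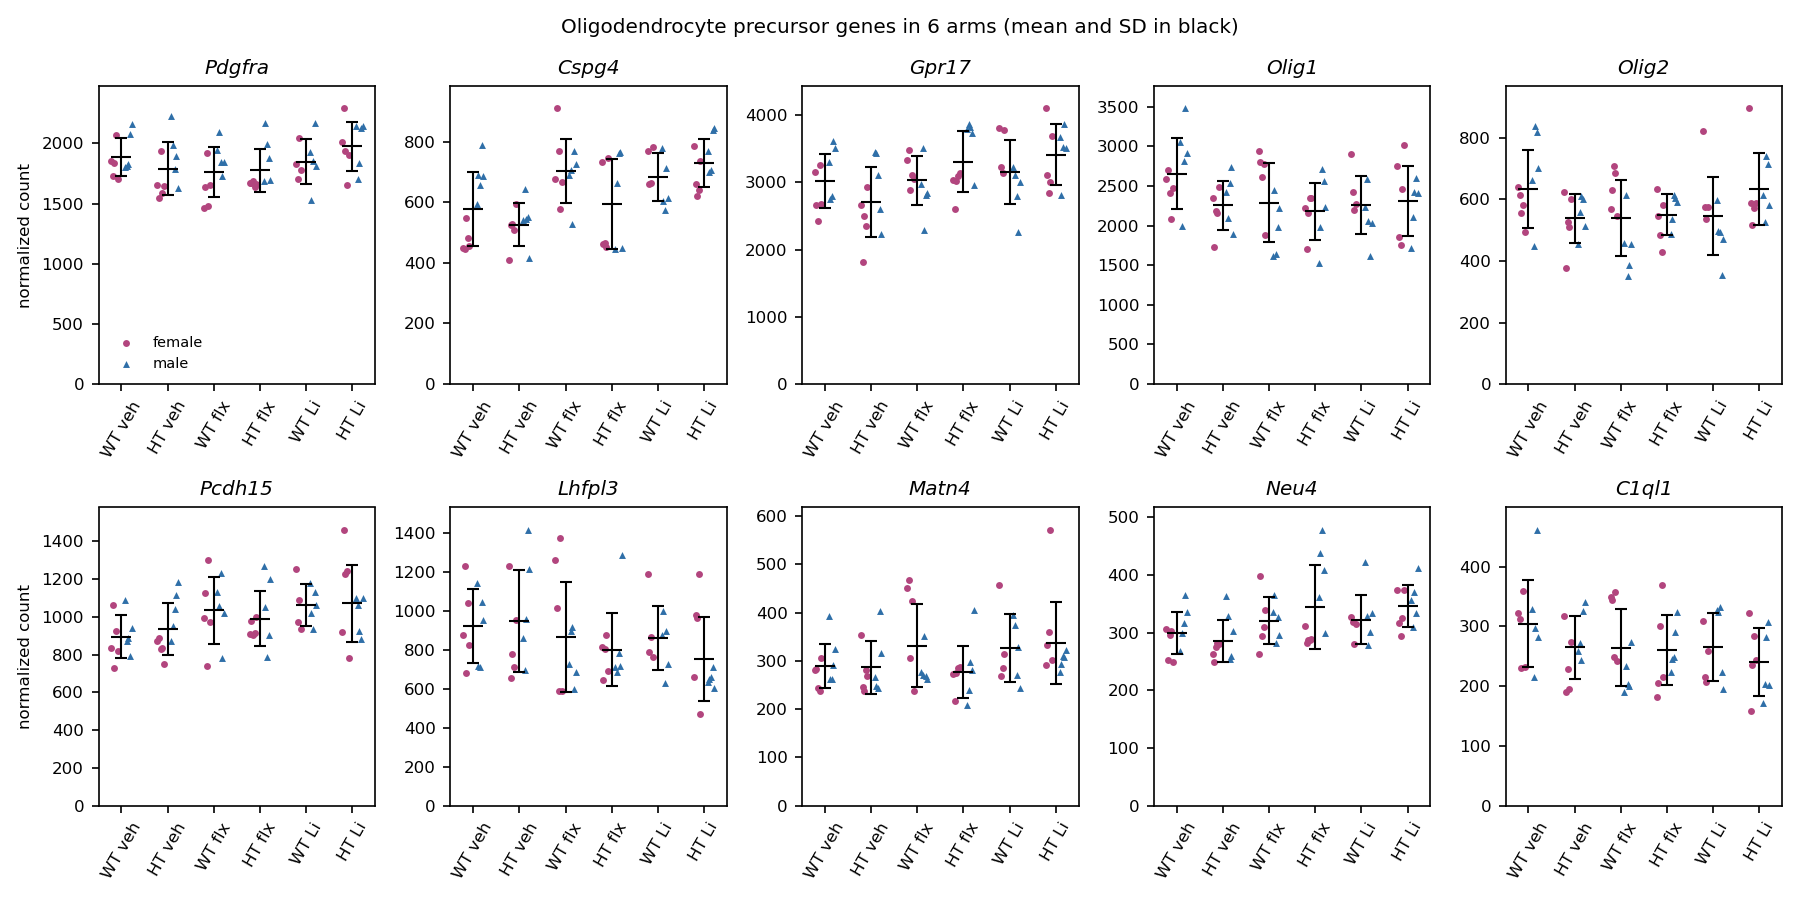
Normalized counts of the 10 genes in the 59 libraries by arm (veh, vehicle; flx, fluoxetine; Li, lithium), with circles for females, triangles for males and black marks for the mean and SD. Cspg4 in HT lithium mice (620 to 844) lies mostly above HT vehicle (409 to 643), and Lhfpl3, Matn4 and C1ql1 spread widely within every arm.

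With fluoxetine, none of the 10 genes passed by limma in either genotype. In HT mice 0.277% of all tested genes passed. Gpr17 came nearest, from a median of 2635 (1817 to 3446) with vehicle to 3115 (2610 to 3867) with fluoxetine, a change of 0.30 ± 0.08 (limma adjusted p = 0.0911), and 9 of 10 fluoxetine libraries were above the vehicle median. Neu4 was 0.25 ± 0.08 (limma adjusted p = 0.129), and all 10 fluoxetine libraries were above the vehicle median. These were the 2 genes with an unadjusted p under 0.05 by limma, beside 11.6% of all tested genes. DESeq2 called Gpr17 (adjusted p = 0.042) and edgeR called neither. Without HT fluoxetine male 5, Gpr17 was 0.34 and Neu4 0.30, both past the threshold (limma adjusted p = 0.0438 and 0.0442). The bulb level of that library, 2.47, was the highest of its arm. Gpr17 also passed without HT vehicle female 5 and without HT vehicle male 2, each left out alone. These values share the vehicle mice with the lithium comparison. Changes across all genes followed GC content with fluoxetine in HT mice as well (Spearman 0.30 across genes).

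Cspg4 in HT fluoxetine mice fell into separate ranges. In 5 libraries it ran from 447 to 464 and in the other 5 from 662 to 766, with both sexes in each range, and its arm mean was 594 ± 150 (SD, n = 10). In HT vehicle mice the SD was 71.2 and in HT lithium mice 79.1.

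In WT mice on fluoxetine 5.66% of all tested genes passed and, again, none of the 10. By limma 4 had an unadjusted p under 0.05, beside 20.6% of all tested genes. They were Cspg4 at 0.29 ± 0.10 (limma adjusted p = 0.0652), Pcdh15 at 0.20 ± 0.09, Olig1 at -0.23 ± 0.11 and Olig2 at -0.24 ± 0.11. DESeq2 called Cspg4 (adjusted p = 0.0389) and edgeR called none. Of 16 myelin genes, 8 were lower, among them Ugt8a at -0.69 ± 0.18, Mog at -0.76 ± 0.20 and Opalin at -0.79 ± 0.21. Id2 (-0.24 ± 0.05) and Id4 (-0.32 ± 0.07), from a list of 9 inhibitors of differentiation, were lower, and so was Enpp6, at -0.47 ± 0.14. Each of these genes outside the 10 passed the limma threshold. The relative level of the whole inhibitor list was 1.01 ± 0.05 (SD) in WT fluoxetine and 1.02 ± 0.04 in WT vehicle mice. For the newly formed oligodendrocyte genes, which include Enpp6, it was 0.98 ± 0.12 and 1.06 ± 0.12. Of the libraries in the fluoxetine arm, 3 of 10 stood apart. The difference of fluoxetine effects between genotypes gave no call among the 10 genes by limma, edgeR or DESeq2. Of all tested genes 0% passed by limma. An unadjusted p under 0.05 by limma was found for 1 of the 10 and for 5.08% of all tested genes.

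Between HT and WT mice none of the 10 genes passed under vehicle, fluoxetine or lithium by limma, edgeR or DESeq2, and by limma 0% of all tested genes passed in each. Under vehicle 3 of the 10 had an unadjusted p under 0.05, beside 6.47% of all tested genes. All 3 were lower in HT mice: Olig1 at -0.23 ± 0.11, Olig2 at -0.23 ± 0.11 and Gpr17 at -0.17 ± 0.08 (limma adjusted p = 0.760, 0.753 and 0.764). Olig1 ran from 1724 to 2735 (median 2267) in HT and from 1996 to 3482 (median 2645) in WT vehicle mice, with overlapping ranges. Under fluoxetine 1 gene had an unadjusted p under 0.05, Cspg4, at -0.27 ± 0.10 (limma adjusted p = 0.333), and under lithium none did. The shares of all tested genes with an unadjusted p under 0.05 were 11.3% under fluoxetine and 11.1% under lithium. Changes across all genes followed GC content in these comparisons too. The Spearman value across genes, which are not independent, was -0.42 under vehicle, -0.22 under fluoxetine and 0.36 under lithium.

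The fluoxetine effect differed between WT females and males for Cspg4, by 0.59 ± 0.20 (limma adjusted p = 0.0492), and for Olig2, by 0.72 ± 0.21 (limma adjusted p = 0.0287), beside 8.66% of all tested genes. Olig1 differed by a like size, 0.60 ± 0.22, and did not pass by limma (adjusted p = 0.0711) or edgeR, but passed by DESeq2 (0.61, adjusted p = 0.0375) and by limma with quantile normalization (0.65, adjusted p = 0.0494). For Cspg4 the WT vehicle females were low. They ran from 446 to 546, the vehicle males from 594 to 787, the fluoxetine females from 576 to 911 and the fluoxetine males from 529 to 769. All 5 fluoxetine females lay above all 5 vehicle females, at 0.59 in females alone (limma adjusted p = 0.00923) and -0.0032 in males alone (limma adjusted p = 0.992).

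Lithium gave a like value against the same vehicle females, 0.60 in WT females alone (limma adjusted p = 0.0208), with libraries from 659 to 781, and -0.06 in WT males alone. The difference of the lithium effects between the sexes did not pass (0.66 ± 0.20, limma adjusted p = 0.272, beside 0% of all tested genes). Both female values rest on the same 5 vehicle libraries. Set directly against vehicle males, a comparison added after seeing the data, vehicle females were lower for Cspg4, at -0.52 ± 0.14 (limma adjusted p = 0.0436), beside 1.58% of all tested genes. The ranges did not overlap, yet the call ended when any of 7 of these 10 libraries was left out (females 1, 2, 4 and 5, males 3, 4 and 5), at -0.47 to -0.53. Of 8 pericyte markers, 2 were also lower in these females and 7 lay below 0. In HT vehicle mice the sexes overlapped for Cspg4, at -0.07 ± 0.14 (limma adjusted p = 0.897). None of the 10 genes passed there by limma, edgeR or DESeq2, beside 0.307% of all tested genes. By limma 3 had an unadjusted p under 0.05, beside 10.1% of all tested genes.

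Olig2, the transcription factor that sets the lineage, was lower with fluoxetine in WT males. Vehicle males ran from 448 to 838 (mean 694 ± 157, SD, n = 5) and fluoxetine males from 351 to 616 (454 ± 101, SD, n = 5), at -0.60 in males alone (limma adjusted p = 0.0318). In females alone it was 0.12 (limma adjusted p = 0.639), from 493 to 641 with vehicle and 547 to 709 with fluoxetine. Neither sex difference held in every fit. Leaving out 1 library ended the Cspg4 call for 14 of the 20 libraries and the Olig2 call for 6. With the GC trend removed, Cspg4 was 0.32 (limma adjusted p = 0.372) and Olig2 0.47 (limma adjusted p = 0.275). Without the 8 libraries that stand apart, 3 of them WT fluoxetine females, they were 0.60 (limma adjusted p = 0.152) and 0.72 (limma adjusted p = 0.155). The bulb level of the WT fluoxetine females ran from 0.08 to 4.28 and that of the males from 0.08 to 1.53. With the GC trend removed, the Cspg4 sex difference of vehicle mice was -0.37 (limma adjusted p = 0.239). The other comparisons of sexes were genotype under vehicle, fluoxetine in HT mice and lithium in HT mice. None of the 10 passed there by limma, edgeR or DESeq2, beside 0.00602%, 0% and 0.012% of all tested genes by limma. By limma 1, 0 and 1 of the 10 had an unadjusted p under 0.05, beside 10.0006%, 5.31% and 17.1% of all tested genes.

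**Figure D3:**
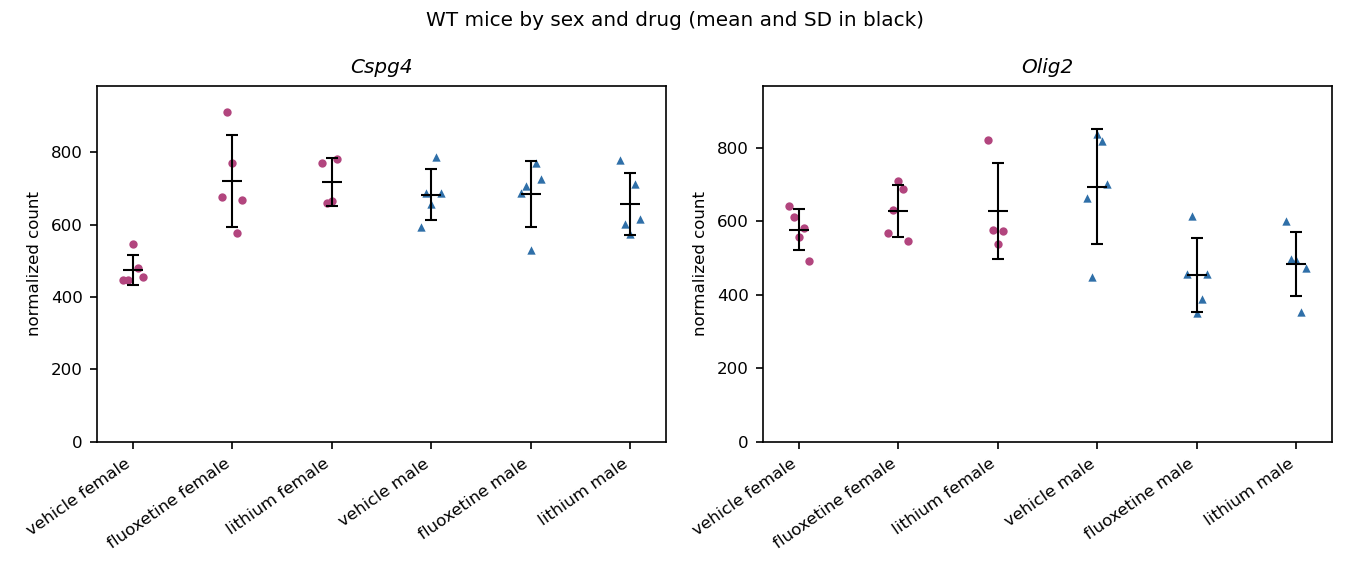
Normalized counts of Cspg4 and Olig2 in WT mice by sex and drug, one point per library, with circles for females, triangles for males and black marks for the mean and SD. The 5 vehicle females for Cspg4 (446 to 546) lie below every other female, and for Olig2 the fluoxetine males (351 to 616) lie mostly below the vehicle males (448 to 838).

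The 10 genes did not vary together as a single block. After the mean of each of the 12 groups was taken off, 27 of the 45 pairs were positively correlated over the 59 libraries, with a median Pearson r of 0.22. The libraries share dissection, depth and composition, and a permutation test within groups with adjustment over the 45 pairs gave 22 pairs past 0.05. The strongest pair was Lhfpl3 with Matn4 (r = 0.78, rho = 0.76, permutation adjusted p = 0.000225 and 0.00015, r = 0.75 without the 2 libraries most extreme on the first measure). Olig1 with Olig2, neighbours on chromosome 16, gave r = 0.62 and rho = 0.59 (permutation adjusted p = 0.000225 and 0.00015, r = 0.57 without 2). Among the 3 genes that passed with lithium in HT mice, Gpr17 with Neu4 gave r = 0.57 and rho = 0.60 and Cspg4 with Neu4 r = 0.56 and rho = 0.56, which stayed at 0.53 and 0.49 without 2. The most negative pair was Cspg4 with Pcdh15 (r = -0.44, rho = -0.40, permutation adjusted p = 0.00524 and 0.012).

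Lhfpl3 and Matn4 followed the bulb markers. Across the 59 libraries Lhfpl3 gave r = 0.92 and rho = 0.92 with them and Matn4 r = 0.80 and rho = 0.81, 0.91 and 0.78 without the 2 most extreme libraries. For both the permutation p was 1e-05, the smallest these permutations can give (6.36e-05 adjusted over 70 relations of a gene with a list). Lhfpl3 ran from 1015 to 1420 in the 7 libraries with a bulb level over 2.5 and from 471 to 1291 in the other 52. Without the 8 libraries that stand apart, r was 0.90 for Lhfpl3 and 0.75 for Matn4. Pcdh15 (r = 0.53, rho = 0.51), C1ql1 (r = 0.47, rho = 0.50) and Olig1 (r = 0.34, rho = 0.40) also passed after adjustment with lower values, at r = 0.45, 0.40 and 0.39 without the 8 libraries, and Gpr17 (r = -0.01, permutation adjusted p = 0.923) did not pass. The relation was not particular to the bulb list. With the neuron markers Lhfpl3 (r = -0.77), Matn4 (-0.69), C1ql1 (-0.62), Pcdh15 (-0.43) and Olig1 (-0.40) passed negatively after adjustment. With the fibroblast markers Lhfpl3 (0.61), Matn4 (0.52), Pcdh15 (0.47) and C1ql1 (0.42) passed positively, and so they did with the pericyte markers. The tissue behind these relations was not tested. With the bulb level as a covariate, Matn4 passed with lithium in HT mice, at 0.35 (limma adjusted p = 0.000736), and so did Pcdh15, at 0.26 (limma adjusted p = 0.0155), while Cspg4, Gpr17 and Neu4 were 0.43, 0.35 and 0.26, all past the threshold. Lhfpl3 then lay at -0.14 and did not pass (limma adjusted p = 0.103). The arm mean of the bulb level was 0.71 in HT lithium and 1.15 in HT vehicle mice.

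**Figure D4:**
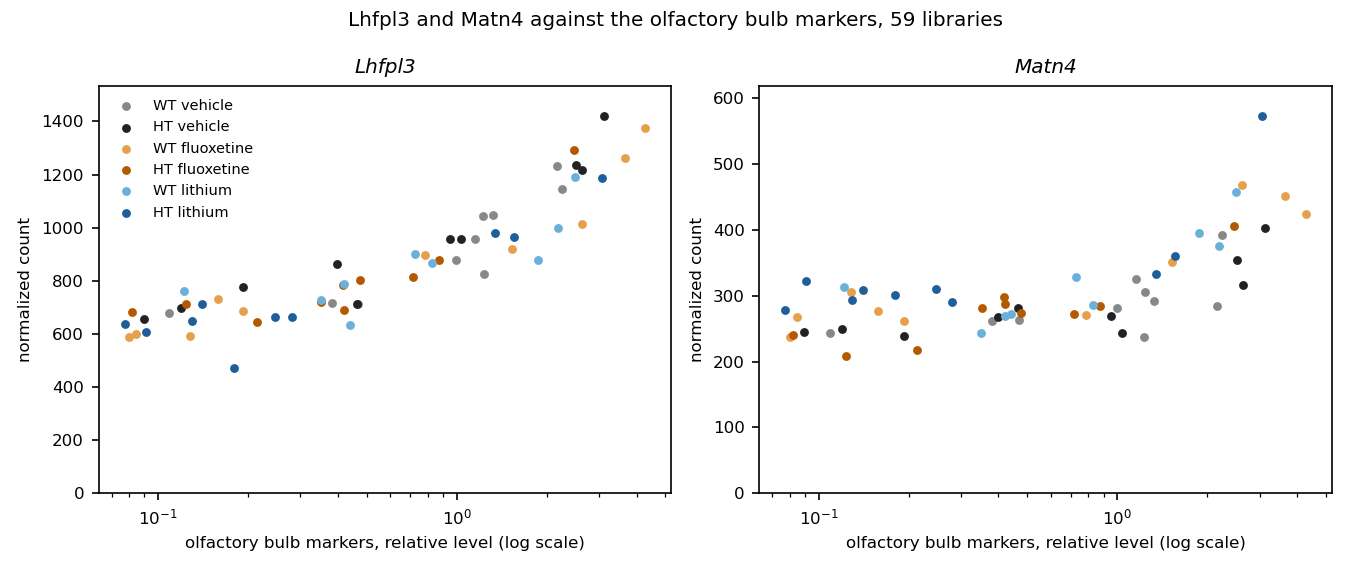
Normalized counts of Lhfpl3 and Matn4 against the relative level of 8 olfactory bulb markers (log axis), one point per library, coloured by arm. Lhfpl3 climbs over the whole range, from 471 to 1420, and Matn4 climbs mainly in libraries with the highest bulb level, reaching 572.

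Olig1, Olig2, C1ql1 (r = 0.50, permutation adjusted p = 0.00199) and Gpr17 (r = 0.45, permutation adjusted p = 0.00332) followed the myelin genes. Olig1 gave r = 0.79 and rho = 0.75 with the 16 myelin genes (0.76 without the 2 most extreme libraries, permutation p = 1e-05, the smallest possible) and Olig2 r = 0.53 and rho = 0.51 (permutation adjusted p = 0.00105 and 0.0014, r = 0.48 without 2). With genes of newly formed oligodendrocytes 6 of the 10 genes passed after adjustment: C1ql1 (r = 0.67), Lhfpl3 (0.62), Olig1 (0.61), Gpr17 (0.55), Olig2 (0.52) and Matn4 (0.51). That list includes Lims2, which overlaps Gpr17 on the other strand. The part of Lims2 in the Gpr17 value was not tested. Pcdh15 was negatively related to myelin (r = -0.44, rho = -0.35, permutation adjusted p = 0.0197 and 0.0397). Pdgfra stood apart from these lists, at r = 0.14 with myelin and 0.03 with newly formed oligodendrocyte genes, and gave r = 0.64 and rho = 0.62 with the other precursor-enriched genes (permutation p = 1e-05 for both, the smallest possible, r = 0.58 without 2). Gpr17 also passed with the precursor-enriched genes (r = 0.47, permutation adjusted p = 0.00332), and Matn4 passed negatively (r = -0.40, permutation adjusted p = 0.0195). Cspg4 passed with the myelin genes (r = 0.35, rho = 0.34, permutation adjusted p = 0.0258 and 0.0354) and, negatively, with the fibroblast markers (r = -0.39, rho = -0.36, permutation adjusted p = 0.033 and 0.0306), whereas r = 0.21 with the precursor-enriched genes and -0.12 with the pericyte markers did not pass. Neu4 gave r = 0.26, 0.08 and 0.25 with precursor, newly formed and myelin genes, none past adjustment over the 70 relations by Pearson's r, though the first passed by rho (0.33, permutation adjusted p = 0.0413). Without the 8 libraries that stand apart, none of the 34 relations with a list and none of the 22 pairs that had passed by Pearson's r changed sign, and r moved by at most 0.17 and 0.09.

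**Figure D5:**
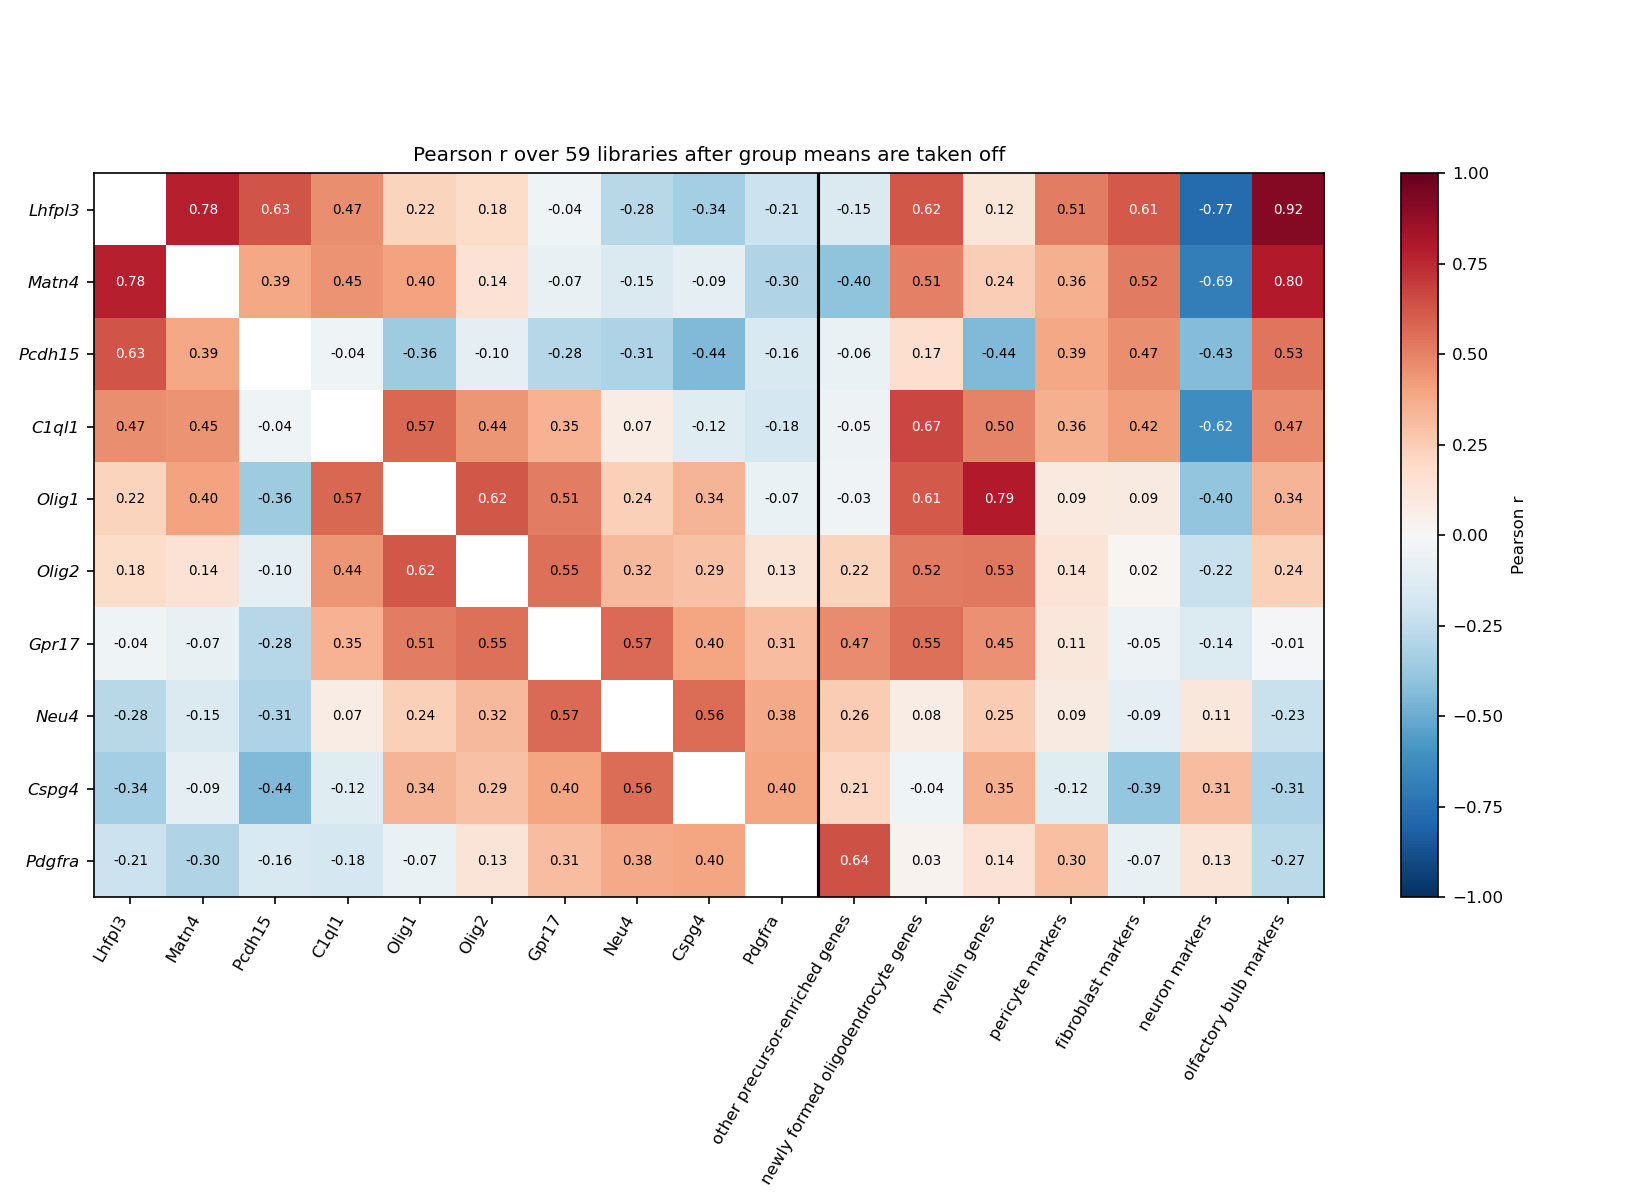
Pearson r over 59 libraries, with group means taken off, between the 10 genes (left of the line) and between each gene and the mean of 7 lists (right of the line). Lhfpl3, Matn4, Pcdh15, C1ql1 and Olig1 are red in the olfactory bulb column (0.92, 0.80, 0.53, 0.47 and 0.34). Olig1, Olig2, C1ql1 and Gpr17 are red in the myelin column (0.79, 0.53, 0.50 and 0.45). Pdgfra and Gpr17 are red in the precursor column (0.64 and 0.47), where Matn4 is blue (-0.40). Lhfpl3 and Matn4 are blue in the neuron column (-0.77 and -0.69).

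The genes outside the 10 whose residual levels were most like the mean z-score of the 10 over the 59 libraries were Sh3bp4 (r = 0.77), Gab1 (0.76), Cers2 (0.76), Map4k4 (0.75), Tns3 (0.74), Grin2c (0.74), Plxnb1 (0.73), Fads2 (0.73), Zcchc24 (0.73) and Sema6a (0.72). These are a description over libraries that share composition.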

How the data were processed

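Per the submitters' processing notes, the authors quantified reads with Salmon 0.11.2 against GRCm38 and normalized them with DESeq2 1.19.11 in R 3.6.0, from stranded mRNA libraries per the labels' protocols. The authors' deposited values are a signal, gene counts scaled by a size factor for each library. The smallest step of each column gave whole reads for 100.0% of values within 0.001, with size factors from 0.783 to 1.245, so depth is known: 22984556 to 35969254 reads.

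Values were log2(normalized count + 1). limma 3.58.1 (R 4.3.3, trend, robust) tested the 16599 genes with a mean of at least 10, with a mean for each of 12 groups and Benjamini-Hochberg adjustment within a comparison. The plan named edgeR for raw counts; the deposited values are normalized, so limma was used, and edgeR 4.0.16 and DESeq2 1.42.0 on recovered reads were alternatives. The steps were tested on simulated data. Symbols and coordinates came from GENCODE M21 (GRCm38), for 18077 IDs. Correlations used 100000 permutations within groups.

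The members and lists were chosen with earlier results of these data known. Named genes are all 10 members, up to 4 genes per other list by smallest p, and the 10 genes most like the members. Alternatives were no filter, other pseudocounts (0.5, 5), quantile normalization, only the groups compared, the replicate block, the bulb covariate, each sex alone and each library left out. The GC trend, the fits and correlations without 8 libraries, and females against males were added after seeing the data. Main values use all 59 libraries, and 0 value columns were set aside.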

Additional observations from a re-analysis of the deposited data

Results flagged for a closer look

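Within a group, a single library lay far from the rest for 10 of the 120 sets of 1 gene in 1 group, in 8 libraries; the limit used is passed by about 1 set in 20 by chance. Pdgfra was high in HT vehicle female 3 (1937; the others 1547 to 1651). Gpr17 was low in HT fluoxetine female 2 (2610; the others 3016 to 3138) and in HT fluoxetine male 5 (2966; the others 3732 to 3867). Olig2 was high in HT lithium female 1 (897; the others 518 to 588) and in WT lithium female 1 (823; the others 537 to 576). Lhfpl3 was high in HT fluoxetine male 5 (1291; the others 684 to 783). Matn4 was low in HT fluoxetine female 2 (217; the others 273 to 288) and high in HT lithium female 4 (572; the others 291 to 360) and WT fluoxetine male 3 (351; the others 261 to 277). Neu4 was high in HT fluoxetine female 1 (312, with the others at 282 to 289). The bulb level was 2.47 in HT fluoxetine male 5, 3.06 in HT lithium female 4, 1.53 in WT fluoxetine male 3 and 2.49 in WT lithium female 1. Each was the highest of its group. HT fluoxetine female 2, at 0.21, was the lowest of its group. HT lithium female 1 (0.28), HT vehicle female 3 (0.19) and HT fluoxetine female 1 (0.71) were neither. The part of the bulb level in these flagged values was not tested.

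The fluoxetine effect differed between WT females and WT males for Cspg4, by 0.59 ± 0.20 (limma adjusted p = 0.0492), and for Olig2, by 0.72 ± 0.21 (limma adjusted p = 0.0287). The Cspg4 call ended when any of 14 of the 20 libraries was left out (0.50 to 0.61), the exceptions being WT fluoxetine females 4 and 5, WT fluoxetine males 4 and 5, WT vehicle female 3 and WT vehicle male 1. The Olig2 call ended without WT fluoxetine female 2 or 4, WT fluoxetine male 1 or 3, or WT vehicle male 3 or 4 (0.64 to 0.73).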

How the results depend on the processing

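Of 160 fold changes (10 genes in 16 comparisons, or 90 for 1 sex alone), no called value changed sign under any setting, while up to 27 uncalled ones did, and pseudocounts of 0.5 and 5 and edgeR changed no call. The number of the 10 genes called was 3 for lithium in HT mice and became 5 with the bulb covariate (Pcdh15 and Matn4 added), 4 with the GC trend removed (Pcdh15 added), 2 without the 8 libraries (Cspg4 and Pcdh15) and 2 in males alone (Cspg4, and Lhfpl3 lower). It was 0 for lithium in WT mice and became 2 with only the groups compared, with the GC trend removed and without the 8 libraries, and 1 in females alone and with the bulb covariate. For fluoxetine it was 0 in HT mice and 1 with DESeq2. In WT mice it was 0, became 3 with the bulb covariate (Cspg4, Pcdh15, Matn4), and became 1 with DESeq2 (Cspg4), in females alone (Cspg4), in males alone (Olig2, lower) and without the 8 libraries (Lhfpl3, -0.44, limma adjusted p = 0.0293). The sex difference of the fluoxetine effect in WT mice counted 2 genes, 3 with DESeq2 (Olig1 added), 2 with quantile normalization (Olig1 in place of Cspg4, adjusted p = 0.0579), 1 with no filter, 1 with the replicate block, and 0 with only the groups compared, with the GC trend removed and without the 8 libraries. Vehicle females against males in WT mice counted 1 and, with the GC trend removed, 0. The cause of each of these moves was not tested. The share of all tested genes called is not given for these fits, nor for those with 1 library left out. The moves are therefore not read as particular to the 10 genes.

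With 1 library left out, the counts ran from 3 to 4 for lithium in HT mice, 0 to 1 for lithium in WT mice, 0 to 2 and 0 to 1 for fluoxetine in HT and WT mice, 0 to 4 for the sex difference and 0 to 1 for vehicle females against males. Pdgfra passed with lithium in HT mice without lithium female 4, lithium male 2, vehicle female 3 or vehicle male 1 (0.17 in each), and Pcdh15 without lithium female 5 (0.25). Pcdh15 passed with lithium in WT mice without vehicle female 2 (0.29) or vehicle male 1 (0.28), and Cspg4 with fluoxetine without fluoxetine female 4 (0.33) or male 3 (0.34).

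The labels number replicates alike in every group and state no pairing. Over 68 pairs of same-numbered libraries from compared groups, deviations correlated at -0.41 to 0.52 (median -0.01), with 16 pairs over 0.1. Pairs with different numbers are not given here, so these values cannot decide whether the numbers pair libraries. The replicate block changed 1 fold change's call, Cspg4 in the sex difference of fluoxetine in WT mice (adjusted p = 0.0562). Depth did not limit these genes, each with at least 161 reads in every library.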
